A study of Bos taurus with 17 samples.

Results

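Feedback and target genes of FGF and ERK signalling were followed in bovine umbilical cord mesenchymal stem cells during 21 days of myogenic culture. They were DUSP6, DUSP4, DUSP5, SPRY2, SPRY4, SPRED1, FOSL1, EGR1, ETV4 and ETV5, chosen by gene symbol, and all 10 were found once each among the 12894 genes of the deposited table. The study concerned cellulose scaffolds for cultivated meat, and RNA was measured by MARS-seq, which counts reads at the 3′ ends of polyadenylated transcripts. Cells of the day 0 plastic group (3 libraries) were untreated on plastic plates and had been seeded the day before. Plastic cultures were also taken after 3 days (3 libraries) and 21 days (2 libraries) in differentiation medium. This medium held 2% fetal bovine serum, insulin-transferrin-selenium supplement (ITS), albumin, dexamethasone, ascorbic acid 2-phosphate, VEGF at 10 ng/mL, insulin-like growth factor at 10 ng/mL and a fibroblast growth factor, against 10% serum in the growth medium. At day 21, cells on a scaffold bathed in the same medium formed the media scaffold group (4 libraries). Cells on a scaffold that carried the growth factors itself, with those factors left out of the medium, formed the smart scaffold group (3 libraries). Medium, serum, dexamethasone and time therefore changed together between day 0 and later groups, and no group lacked the growth factors at day 3 or day 21. The labels name no animal or clone, and cells of scaffolds at day 0 were not analysed here.

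Fibroblast growth factors bind receptor tyrosine kinases at the cell surface, with heparan sulfate proteoglycans as partners, and pass the signal through the adaptor FRS2, RAS, RAF and MEK to the kinase ERK. Active ERK switches on transcription of genes that then restrain the pathway, among them phosphatases that remove phosphate from ERK and Sprouty and Spred proteins that act between receptor and RAF. In mesenchymal cells this pathway is known for keeping cells dividing and for holding back differentiation, and other growth factors and adhesion also feed into ERK.

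Recovered reads per library ranged from 2197356 to 15483745 with a median of 7510490, and the 2 plastic libraries of day 21 held 5264578 and 2197356. Values are normalized reads, that is, read counts divided by 1 factor per library, and a log2 change is a difference of group means of log2(normalized reads + 1). Replicate libraries correlated at 0.962 to 0.992 across genes. All 8 mesenchymal stem cell markers checked and all 8 fibroblast markers had reads in every group. The summed level of the stem cell markers was 12390 to 12670 normalized reads at day 0, 11080 to 18980 at day 3, 32230 to 40060 on plastic at day 21, 27140 to 29750 on the media scaffold and 24800 to 27270 on the smart scaffold. ITGB1 and THY1 made up most of these sums, and mean THY1 went from 401 at day 0 to 18120 on plastic at day 21. Between these groups the means of CD44 (1429 to 335), ALCAM (48.3 to 21.7) and NT5E (298 to 188) went down. Those of the other markers on the list went up. The summed level of the fibroblast markers was 153300 to 163100 at day 0, 141300 to 154100 at day 3, 209300 to 212600 on plastic at day 21, 573500 to 580400 on the media scaffold and 536900 to 611300 on the smart scaffold, so that it was highest on both scaffolds. Of the endothelial markers 3 of 8 were in the table, and their summed level was 22.9 to 28.0 at day 0, 41.1 to 53.2 at day 3, 45.5 to 89.3 on plastic at day 21, 29.6 to 42.5 on the media scaffold and 34.5 to 42.5 on the smart scaffold. Of 8 blood and immune markers 5 were in the table, at 26.8 to 30.2 at day 0, 28.6 to 79.5 at day 3, 130 to 182 on plastic at day 21, 22.2 to 30.8 on the media scaffold and 24.1 to 30.4 on the smart scaffold. The part of such cells, and of the shift in fibroblast and stem cell markers, in the results below was not tested. Of 11 skeletal muscle genes 5 were in the table, with a summed level of 949 to 1034 at day 0, 889 to 1733 at day 3, 11920 to 14410 on plastic at day 21, 10880 to 12180 on the media scaffold and 10710 to 11330 on the smart scaffold. DES made up nearly all of this sum, with a mean of 992.5 at day 0 and 13070 on plastic at day 21. MYF6, MYH3 and ACTA1 had group means of at most 17.0. TNNT3 had a mean of 72.7 on plastic at day 21 and at most 0.656 in the other groups. Summed levels of 8 cell division markers were 4792 to 5252 at day 0, 2454 to 3388 at day 3, and 302 to 371 in the 3 groups of day 21. Within these groups, mean MKI67 was 22.0 on plastic, 85.8 on the media scaffold and 68.3 on the smart scaffold. Means of CDK1, CCNB1, BUB1 and TOP2A were also higher on both scaffolds, and those of PLK1 (144, 94.45 and 90.7) and AURKB were lower. CCNA2 had 11.7, 10.13 and 11.75. In bulk RNA, fewer cells of a type and less RNA per cell cannot be told apart.

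The 10 genes did not move as a block. On plastic in differentiation medium the ERK phosphatase gene DUSP6, SPRY2 and the ETS factor gene ETV5 climbed to several times their day 0 levels by day 21. FOSL1, EGR1 and SPRED1 fell over that time. On both scaffolds at day 21 DUSP6, SPRY2, SPRY4, DUSP4 and ETV5 were lower than on plastic of the same day, and FOSL1 and SPRED1 were higher. The results for DUSP4 on both scaffolds and SPRY4 on the smart scaffold rest on few reads and were lost under some settings. That for FOSL1 on the media scaffold was lost without plastic library 1 of day 21. The fall of SPRED1 on plastic was lost without the same library and also under another setting. No tested member was called between the 2 kinds of scaffold. A gene was called, and is said to have risen or fallen, at a Benjamini-Hochberg adjusted p under 0.05 in limma with a log2 change of at least 1 in either direction.

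**Figure D1:**
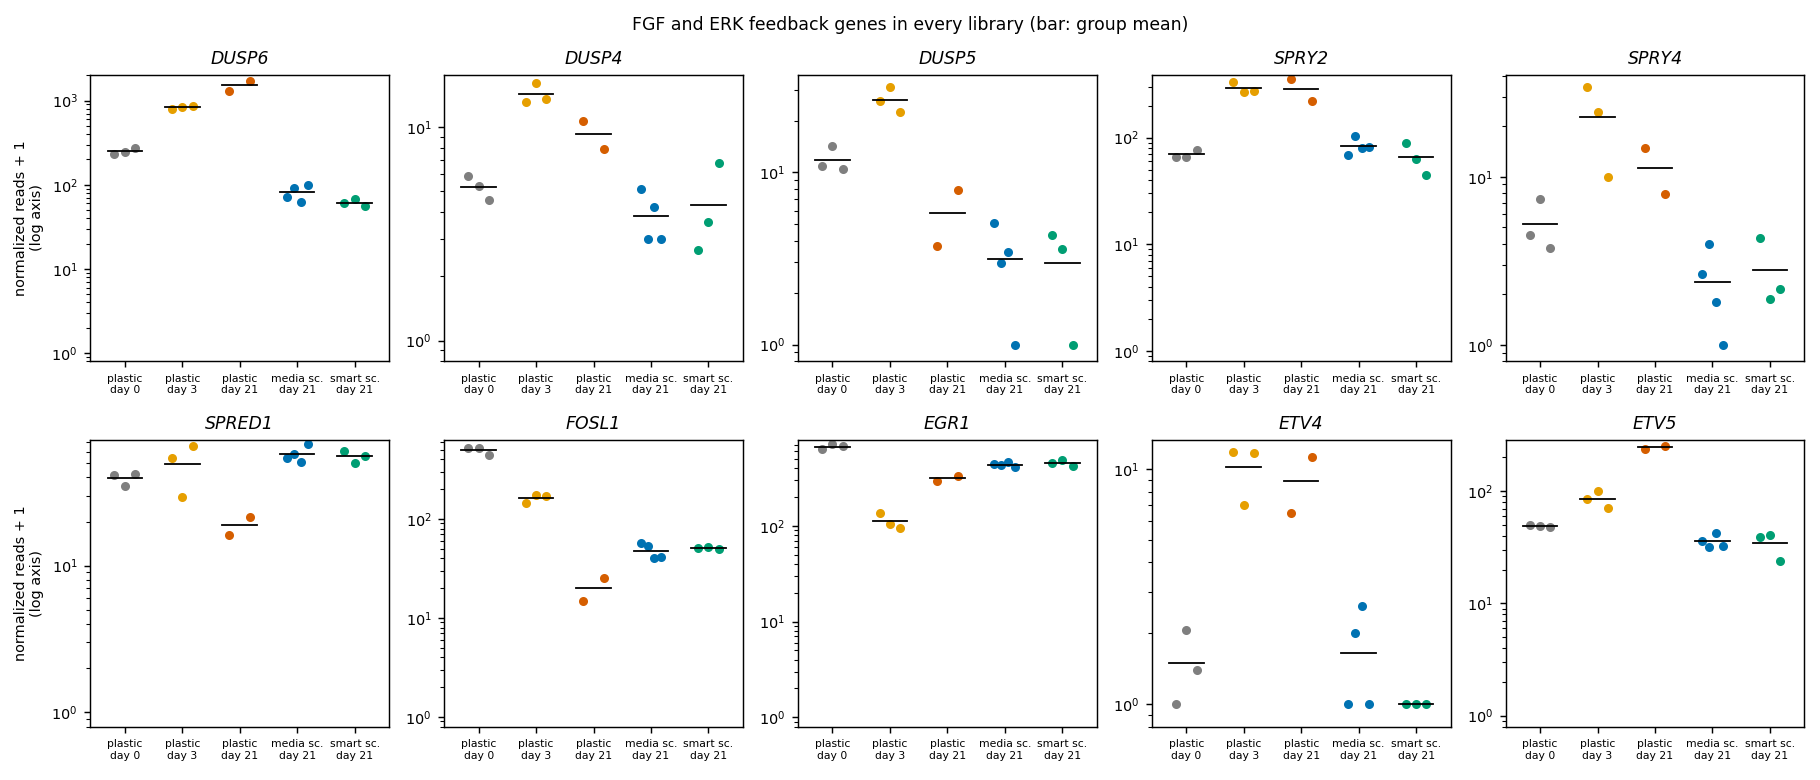
Normalized reads + 1 (log axis) of the 10 genes in every library of the 5 groups, where each point is a library and each bar the group mean. DUSP6 stands at 1310 and 1718 on plastic at day 21 and at 55.2 to 97.7 in the 7 scaffold libraries, while SPRED1 and FOSL1 are at their lowest on plastic at day 21.

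Of the 10 genes 9 were tested, since testing required a mean of at least 5 over the 15 libraries, and ETV4 had a mean of 3.16. DUSP4 (6.02), SPRY4 (7.28) and DUSP5 (8.88) lay little above that minimum. They reached it mainly through the plastic groups where they were high, so counts of called members lean towards differences. At day 3 on plastic, 4 of the 9 rose and 2 fell against day 0, where 10% of the 10960 tested genes were called (6.27% higher and 3.73% lower). Their median log2 change was 1.16, and that of all tested genes was −0.02. The 2 groups had separate library values (no overlap) in 8 of the 9, and in 44.3% of all genes. At day 21 on plastic 3 rose and 3 fell against day 0, where 45.2% of all genes were called (21.2% higher, 24.1% lower), and the medians were 0.81 and −0.06. With every library rescaled to an equal total, 1812 of all genes were higher and 3276 lower there, in place of 2320 and 2636. Libraries did not overlap for 9 of the 9, and for 79.7% of all genes. From day 3 to day 21, 2 rose and 3 fell, where 34.9% of all genes were called (15.5% higher, 19.4% lower), with medians of −0.63 and −0.04, and libraries did not overlap for 7 of the 9 and for 65.4% of all genes. The rescaled counts over all genes were 1148 higher and 3057 lower, in place of 1700 and 2124.

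Against plastic at day 21, 2 members rose and 5 fell on the media scaffold, where 35.4% of all genes were called (20.8% higher, 14.6% lower). The medians there were −1.30 for the members and 0.02 for all genes, and libraries did not overlap for 8 of the 9 and for 71.2% of all genes. On the smart scaffold also 2 rose and 5 fell, where 37.5% of all genes were called (21.4% higher, 16% lower), with medians of −1.19 and 0.01, and libraries did not overlap for 8 of the 9 and for 73.1% of all genes. Both of these comparisons use the same 2 plastic libraries, as do those of plastic at day 21 with the earlier days. Without the first of these libraries 5 members were called on each scaffold.

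The dual-specificity phosphatase DUSP6 (ENSBTAG00000004587), which removes phosphate from ERK in the cytoplasm, had 231, 245 and 274 normalized reads in the 3 libraries of day 0 and 793, 835 and 853 at day 3. On plastic at day 21 it had 1310 and 1718. The media scaffold libraries held 71.4, 90.5, 61.6 and 97.7, and the smart scaffold libraries 59.4, 66.8 and 55.2. The plastic groups thus stood in order of time with no overlap between libraries, and every scaffold library lay below every plastic library, those of day 0 included.

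DUSP6 rose by a log2 change of 1.73 ± 0.16 (SE) at day 3 (limma, adjusted p = 3.26e-07) and by 2.58 ± 0.18 at day 21 on plastic against day 0 (adjusted p = 9.48e-10). The step from day 3 to day 21 was 0.86 ± 0.18, below the fold threshold, and 1.05 with plastic library 1 of day 21 left out. Against plastic of the same day, DUSP6 was lower by a ratio of means of 18.9 on the media scaffold (log2 change −4.23 ± 0.17, adjusted p = 4.25e-12) and 25.0 on the smart scaffold (−4.61 ± 0.18, adjusted p = 2.19e-12). It also fell against day 0, by 1.65 on the media scaffold and by 2.03 on the smart scaffold on the log2 scale. These were the largest differences of any tested member between scaffold and plastic at day 21.

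DUSP4 (ENSBTAG00000044208), a nuclear phosphatase of ERK and related kinases, was read in small numbers: 24 reads over the libraries of day 0, 40 at day 3, 9 on plastic at day 21, 13 on the media scaffold and 9 on the smart scaffold. Its libraries had 4.92, 4.27 and 3.55 normalized reads at day 0, 12.1, 15.1 and 12.5 at day 3, and 9.66 and 6.87 on plastic at day 21. Media scaffold libraries lay between 1.97 and 4.10 and smart scaffold libraries between 1.65 and 5.75, so that the scaffold groups overlapped each other and day 0. DUSP4 rose at day 3 (log2 change 1.44 ± 0.40, limma, adjusted p = 0.0108). It fell on both scaffolds against plastic at day 21 (−1.30 ± 0.43, adjusted p = 0.0133, and −1.19 ± 0.45, adjusted p = 0.0278). With DESeq2 on whole reads the adjusted p at day 3 was 0.0511. The falls on the scaffolds were no longer called with edgeR on whole reads (adjusted p = 0.0532 and 0.083), with a pseudocount of 4 (−0.85 and −0.77), or when plastic library 1 of day 21 was left out (−1.08, adjusted p = 0.0919, and −0.97, adjusted p = 0.138).

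DUSP5 (ENSBTAG00000020283), a nuclear phosphatase specific to ERK, was highest at day 3. It had 9.84, 13.3 and 9.47 normalized reads at day 0, 24.9, 30.2 and 21.4 at day 3, and 2.76 and 6.87 on plastic at day 21. The media scaffold libraries held 4.10, 1.99, 2.43 and 0, and the smart scaffold libraries 3.30, 2.60 and 0. All libraries of day 3 lay above all others, and the 3 groups of day 21 overlapped at few reads (4, 10 and 5 reads in all).

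The difference between day 3 and day 0 had a log2 change of 1.16 ± 0.59 (limma, adjusted p = 0.149), and it was called with edgeR on the whole reads of 13 libraries (1.10, adjusted p = 0.0464). DUSP5 fell from day 3 to day 21 on plastic (−2.27 ± 0.66, adjusted p = 0.00659), a call that ended without plastic library 1 of day 21 (−1.74, adjusted p = 0.0776). It also fell against day 0 on the media scaffold (−2.13 ± 0.55, adjusted p = 0.00278) and the smart scaffold (−2.24 ± 0.59, adjusted p = 0.00344). Against day 0, plastic at day 21 had a value of −1.11 ± 0.66 (adjusted p = 0.143). In mean level DUSP5 stood in the order day 3, day 0 and then the groups of day 21, and DUSP4 in the order day 3, plastic at day 21 and day 0, while for DUSP6 plastic at day 21 came first. DUSP4 on plastic at day 21 differed from day 0 by 0.81 ± 0.45 (limma, adjusted p = 0.116), which was not called.

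SPRY2 (ENSBTAG00000001774) encodes a Sprouty protein that restrains signalling between receptor and RAF. Its libraries had 64.7, 65.6 and 76.2 normalized reads at day 0, 335, 265 and 275 at day 3, and 352 and 220 on plastic at day 21. On the media scaffold they had 67.3, 103, 79.4 and 80.9, and on the smart scaffold 87.5, 61.6 and 43.7. Day 3 and plastic at day 21 overlapped and lay above all other libraries, while both scaffold groups overlapped day 0.

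SPRY2 rose at day 3 (log2 change 2.06 ± 0.23, limma, adjusted p = 2.54e-06) and stood at 2.00 ± 0.25 above day 0 on plastic at day 21 (adjusted p = 2.02e-06). Between day 3 and day 21 the change was −0.06, with a 95% interval from −0.60 to 0.48. It fell against plastic of day 21 on the media scaffold (−1.75 ± 0.24, adjusted p = 7.42e-06) and on the smart scaffold (−2.15 ± 0.25, adjusted p = 1.33e-06). Against day 0 the scaffold groups had log2 changes of 0.25 (95% interval −0.20 to 0.70) and −0.15 (−0.63 to 0.33).

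SPRY4 (ENSBTAG00000008250), a further Sprouty gene, showed a similar order of groups at a far lower read number. It had 5, 12 and 7 reads in the libraries of day 0, 49, 23 and 5 at day 3, 10 and 2 on plastic at day 21, 2, 3, 1 and 0 on the media scaffold, and 2, 1 and 1 on the smart scaffold. In normalized reads, day 3 ranged from 8.93 to 33.0, day 0 from 2.76 to 6.40, plastic at day 21 from 6.87 to 13.8, and the scaffold libraries from 0 to 3.30. The spread at day 3 was wide, with the shallowest library of that day the lowest.

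SPRY4 rose at day 3 (log2 change 2.01 ± 0.57, limma, adjusted p = 0.0127), which lost the call without the third library of day 0 (1.80, adjusted p = 0.0534) or the first library of day 3 (1.63, adjusted p = 0.0734). It fell against plastic at day 21 on the media scaffold (−2.37 ± 0.61, adjusted p = 0.00259) and on the smart scaffold (−2.06 ± 0.64, adjusted p = 0.00955). The latter call ended without plastic library 1 of day 21 (−1.61, adjusted p = 0.0928) and with array weights (−2.17, adjusted p = 0.0606). The media scaffold was also called lower than day 0 (−1.26 ± 0.54, adjusted p = 0.0486), although the libraries of these groups overlapped. That call ended without any 1 of the libraries of day 0 or without media scaffold library 1, 3 or 4, where the change was −0.91 to −1.47, and with a pseudocount of 4 (−0.62, adjusted p = 0.107).

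SPRED1 (ENSBTAG00000032518), a Spred protein that recruits the RAS inhibitor neurofibromin to the membrane, followed another course. Its libraries had 40.8, 34.1 and 41.1 normalized reads at day 0, 53.2, 28.2 and 64.3 at day 3, and 15.2 and 20.6 on plastic at day 21. On the media scaffold they had 53.3, 56.7, 50.2 and 66.1, and on the smart scaffold 59.4, 49.5 and 55.2. Plastic at day 21 was below all other libraries, and the scaffold libraries were above those of day 0.

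The fall of SPRED1 on plastic from day 0 to day 21 was 1.08 ± 0.28 on the log2 scale (limma, adjusted p = 0.00237), but −0.87 without plastic library 1 of day 21 and −0.97 with a pseudocount of 4, both below the fold threshold. SPRED1 was higher on the media scaffold than on plastic at day 21 (1.62 ± 0.27, adjusted p = 4.86e-05) and on the smart scaffold likewise (1.57 ± 0.28, adjusted p = 0.000107). At day 3 its change was 0.25 (95% interval −0.28 to 0.77). Among the 3 membrane-level inhibitors, SPRY2 and SPRY4 thus fell and SPRED1 rose on scaffolds against plastic at day 21.

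ETV5 (ENSBTAG00000014915) belongs to the PEA3 group of ETS transcription factors, which ERK induces downstream of FGF in many tissues. It had 49.2, 48.0 and 47.0 normalized reads at day 0, 84.2, 98.6 and 69.6 at day 3, and 236 and 254 on plastic at day 21. The media scaffold libraries held 35.3, 30.8, 41.3 and 31.6, and the smart scaffold libraries 38.0, 39.9 and 23.0. No library overlapped between the plastic days, and all 7 scaffold libraries lay below those of day 0.

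On plastic ETV5 rose by 2.33 ± 0.23 on the log2 scale from day 0 to day 21 (limma, adjusted p = 1.07e-07), of which 0.78 ± 0.21 was reached by day 3, below the fold threshold. It was lower than on plastic at day 21 by a ratio of means of 7.05 on the media scaffold (−2.79 ± 0.22, adjusted p = 1.36e-08) and 7.29 on the smart scaffold (−2.87 ± 0.23, adjusted p = 1.7e-08). Against day 0 the scaffolds differed by −0.47 ± 0.19 (adjusted p = 0.0449) and −0.54 ± 0.21 (adjusted p = 0.0317), below the fold threshold.

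ETV4 (ENSBTAG00000008333), from the same ETS group, was not tested in the main fit. It had 0, 2 and 1 reads in the libraries of day 0, 16, 6 and 6 at day 3, 4 and 3 on plastic at day 21, 0, 1, 2 and 0 on the media scaffold, and 0 in all 3 smart scaffold libraries. The libraries of day 3 and of plastic at day 21 all lay above the rest in normalized reads, at 5.52 to 10.8 against 0 to 1.62. The level at day 3 was 17.9 times that of day 0 (95% exact counting interval 5.53 to 92.1), where the interval covers counting error alone. Plastic at day 21 was 10.3 times the media scaffold (2.35 to 61.6) and at least 6.04-fold higher than the smart scaffold, taking a floor of 3 reads over that group. Tested without a minimum mean, ETV4 gave log2 changes of 2.80 at day 3 against day 0 (limma, adjusted p = 0.000319), −2.51 on the media scaffold against plastic at day 21 (adjusted p = 0.000477) and −3.10 on the smart scaffold (adjusted p = 9.87e-05).

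FOSL1 (ENSBTAG00000006194) encodes FRA1, a partner of JUN in the AP-1 transcription factor that ERK both induces and stabilises. Its libraries had 519.0, 525.8 and 437.8 normalized reads at day 0, 144, 174 and 171 at day 3, and 13.8 and 24.1 on plastic at day 21. On the media scaffold they had 55.8, 52.7, 38.9 and 40.5, and on the smart scaffold 49.5, 51.2 and 48.3. The libraries of day 0, of day 3, of the scaffolds and of plastic at day 21 formed 4 separate levels in that order.

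FOSL1 fell by 1.59 ± 0.19 on the log2 scale at day 3 (limma, adjusted p = 7.53e-06) and by 4.68 ± 0.22 at day 21 on plastic (adjusted p = 6.49e-12), a ratio of means of 26.1. On the scaffolds it was 3.38 and 3.28 below day 0 on that scale (adjusted p = 2.86e-11 and 1.37e-10). Against plastic of the same day it was higher on the media scaffold (1.30 ± 0.21, adjusted p = 3.33e-05) and on the smart scaffold (1.40 ± 0.22, adjusted p = 2.69e-05). Without plastic library 1 of day 21 the media scaffold value was 0.92, below the fold threshold. FOSL1 therefore moved opposite to DUSP6 and ETV5 in every one of these comparisons with plastic at day 21.

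EGR1 (ENSBTAG00000010069), an immediate early zinc finger factor that responds to ERK within minutes of a stimulus, dipped at day 3 on plastic. It had 628, 716 and 678 normalized reads at day 0, 136, 105 and 94.6 at day 3, and 295 and 330 on plastic at day 21. The media scaffold libraries held 444, 431, 459 and 411, and the smart scaffold libraries 457.3, 492.8 and 417.3. The scaffold libraries lay between plastic at day 21 and day 0, with no overlap with either.

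EGR1 fell by 2.60 ± 0.12 on the log2 scale at day 3 (limma, adjusted p = 7.49e-11), the largest fall of a tested member in that comparison. It rose again from day 3 to day 21 on plastic (1.49 ± 0.14, adjusted p = 7.85e-08) and was then still 1.11 below day 0 on that scale (adjusted p = 1.78e-06). The media and smart scaffolds stood 0.48 ± 0.13 and 0.54 ± 0.14 above plastic at day 21 (adjusted p = 0.00426 and 0.00261), below the fold threshold. On a list of further ERK-responsive transcription genes, JUN showed the same order of plastic groups as EGR1, with 1890 ± 60.2 (SD, n = 3) normalized reads at day 0, 534 ± 60.9 (n = 3) at day 3 and 808 ± 121 (n = 2) at day 21. JUN fell at day 3 by 1.83 on the log2 scale (adjusted p = 1.62e-08).

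**Figure D2:**
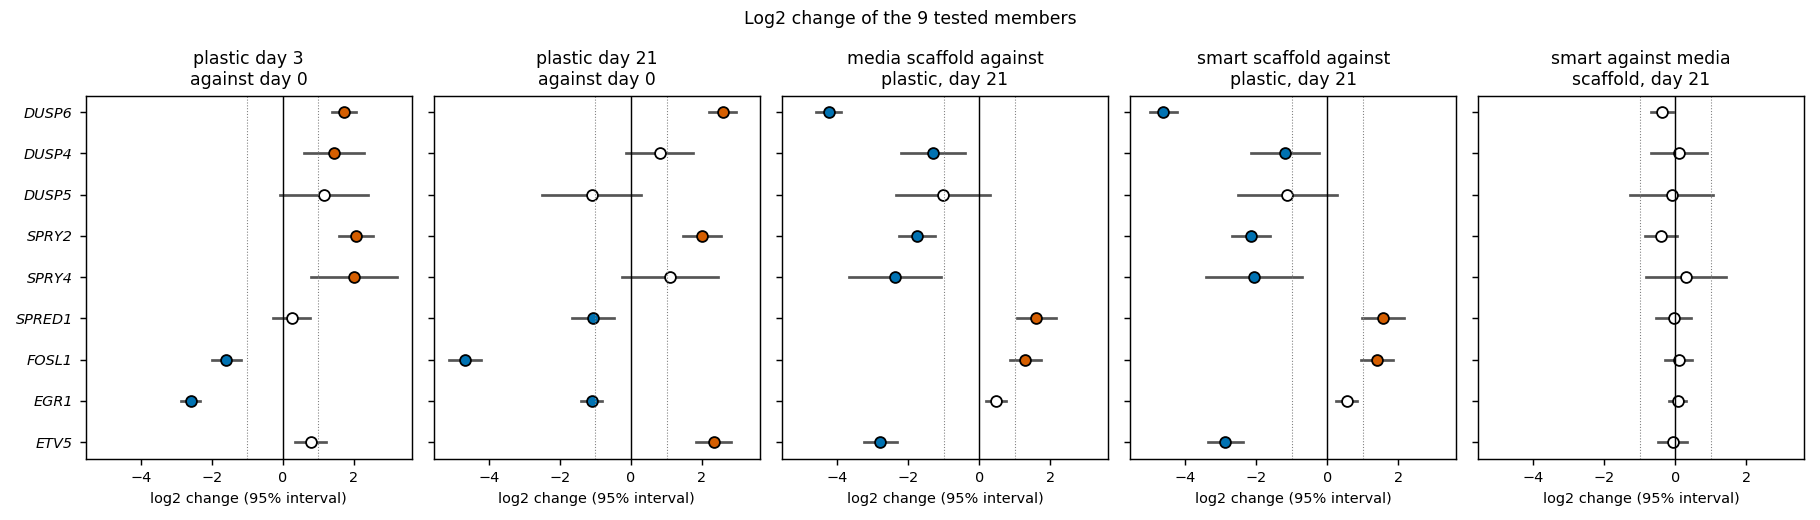
Log2 change (point) with its 95% interval (line) of the 9 tested genes in 5 comparisons, where orange points rose, blue points fell, white points were not called, and dotted lines mark a log2 change of 1 in either direction. DUSP6 lies at 1.73 and 2.58 in the plastic time course and at −4.23 and −4.61 on the scaffolds, and no gene is called between the scaffolds.

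Whether growth factors attached to the scaffold gave other levels than factors in the medium was addressed by comparing the 2 scaffold groups. None of the 9 tested members was called (limma, 0 of 9), and 0.903% of all genes were, 8 higher (0.073%) and 91 lower (0.83%) on the smart scaffold. With edgeR and with DESeq2 on whole reads the count was also 0, and at an unadjusted p under 0.05 it was 1. That gene was DUSP6, at −0.38 ± 0.15 (limma, unadjusted p = 0.019, adjusted p = 0.238), with 3 smart scaffold libraries at 55.2 to 66.8 and 4 media scaffold libraries at 61.6 to 97.7. Libraries of the 2 groups overlapped for all 9 tested members, while they did not overlap for 20.4% of all genes.

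The 95% intervals of the difference between smart and media scaffold show what size remains possible. They were −0.18 to 0.31 for EGR1, −0.29 to 0.48 for FOSL1, −0.49 to 0.33 for ETV5, −0.54 to 0.45 for SPRED1, −0.70 to −0.07 for DUSP6 and −0.85 to 0.05 for SPRY2. For the genes with few reads they were wider and reached past a log2 change of 1 for SPRY4 (−0.82 to 1.44) and DUSP5 (−1.28 to 1.06). For DUSP4 the interval was −0.69 to 0.90. The added pseudocount narrows these intervals for genes with few reads. As ratios of pooled reads, smart over media scaffold, DUSP4 had 1.18 with a 95% counting interval of 0.444 to 2.98 and SPRY4 1.13 with 0.235 to 4.78. For DUSP5 the ratio of media over smart scaffold was 1.18 (0.366 to 4.38). A difference of 2-fold between the scaffold types was thus within counting error for DUSP4, SPRY4 and DUSP5, and lay outside the 95% interval for the other 6 tested genes.

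Set against day 0 on plastic, which differs from the scaffold groups in medium, time and support at once, 0 members rose and 4 fell on the media scaffold (32.4% of all genes called, 17.5% higher and 14.9% lower). On the smart scaffold 0 rose and 3 fell (30.6% of all genes called, 16.5% higher and 14.1% lower). The share of members called was thus near that of all genes. Libraries did not overlap for 6 of the 9 members in each comparison, and for 72.4% and 72.9% of all genes. Rescaled to an equal total, 1494 of all genes were higher and 2271 lower on the media scaffold (1913 and 1635 as deposited), and 1420 and 2155 on the smart scaffold (1808 and 1546). DUSP6, FOSL1 and DUSP5 fell in both comparisons, which share the 3 libraries of day 0, and SPRY4 fell on the media scaffold with the limits given above.

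The wider pathway was read from lists of its other genes, whose counts stand beside the shares of all genes called in the same comparisons. The minimum mean for testing applied to these lists too. Some genes, such as FGF9 and KLB, met it only through the scaffold groups where they were high, so these counts also lean towards differences. Of 7 FGF ligand genes tested, 2 rose and 1 fell at day 3 (10% of all genes called), and 3 rose and 2 fell on plastic at day 21 against day 0 (45.2% of all genes). FGF2, a broadly acting FGF ligand, went from 11.8 ± 3.53 normalized reads at day 0 (n = 3) to 230 ± 33.8 on plastic at day 21 (n = 2), with 236 ± 18.2 on the media scaffold (n = 4) and 254 ± 20.4 on the smart scaffold (n = 3). Its log2 change on plastic was 4.21 (limma, adjusted p = 1.2e-10). FGF5 moved the other way, from 257 ± 9.04 at day 0 to 13.4 ± 4.42 on plastic at day 21 (log2 change −4.19, adjusted p = 1.2e-08). FGF5 had log2 changes of 0.06 on the media scaffold and 0.01 on the smart scaffold against plastic at day 21, neither of them called.

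Against plastic at day 21, 2 of the 7 ligand genes rose and 0 fell on each scaffold (35.4% of all genes called on the media and 37.5% on the smart scaffold). FGF9 had 1 read over the plastic libraries of day 21, 109 on the media scaffold and 44 on the smart scaffold, ratios of 24.8 (counting interval 4.35 to 987) and 17.0 (2.9 to 687). FGF10, a ligand of mesenchymal tissues, had 91.1 and 17.2 normalized reads on plastic at day 21, 151 to 171 on the media scaffold and 95.4 to 145 on the smart scaffold. Its calls on the media scaffold (1.96, adjusted p = 0.00117) and smart scaffold (1.53, adjusted p = 0.00973) ended when plastic library 2 of day 21 was left out (0.79 and 0.365). The smart scaffold value was also below the fold threshold with edgeR (0.87) and DESeq2 (0.96).

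**Figure D3:**
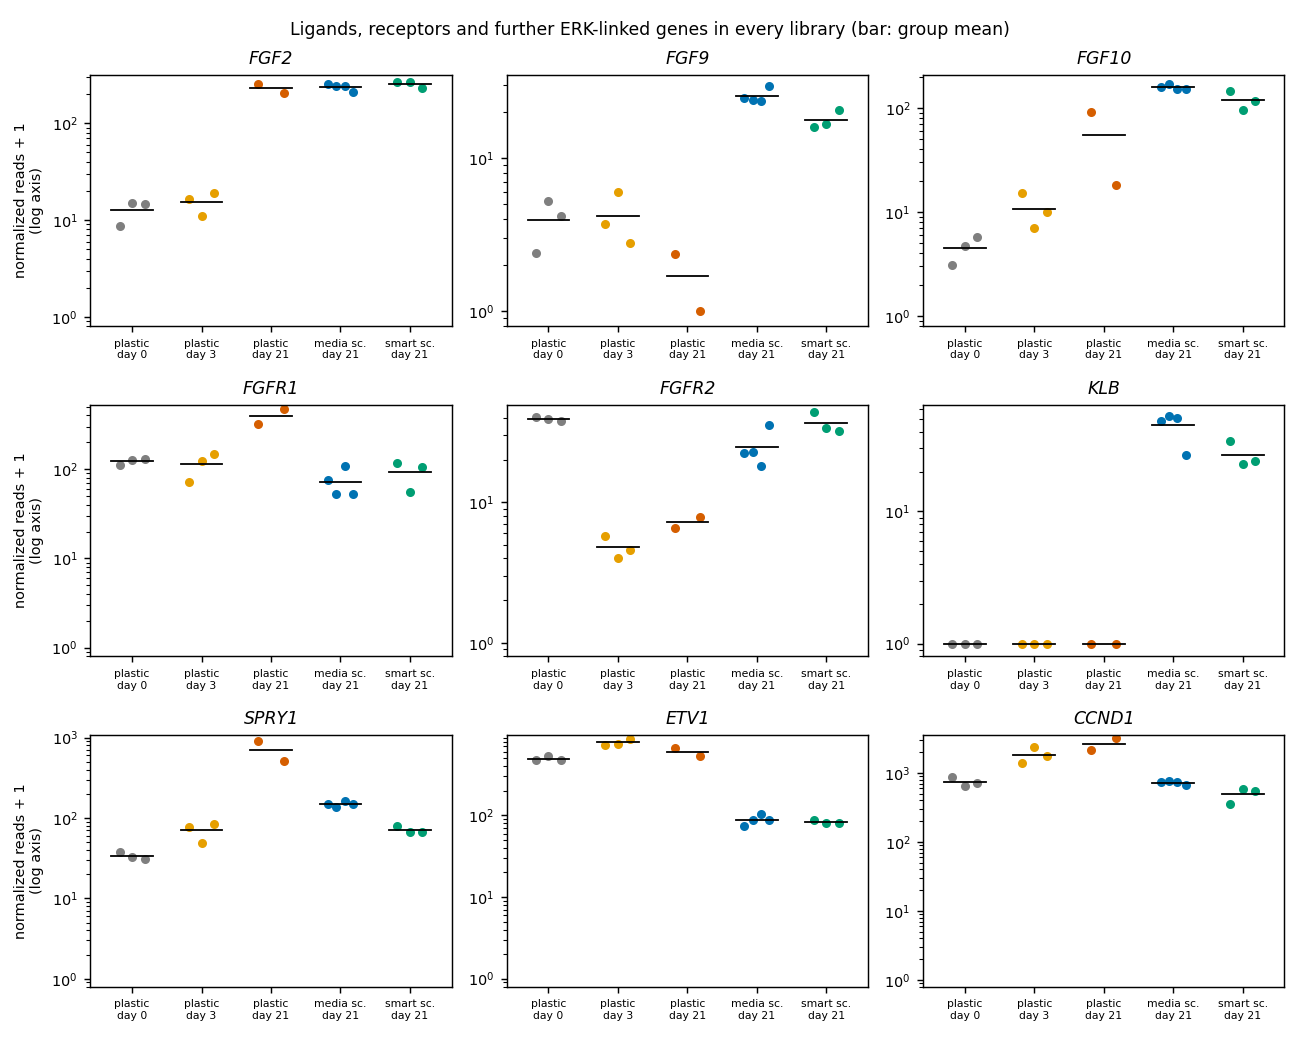
Normalized reads + 1 (log axis) of 9 ligand, receptor and target genes in every library, where each point is a library and each bar the group mean. FGF2 is alike in the 3 groups of day 21, FGFR1 and SPRY1 are highest on plastic at day 21, and KLB has reads only in the 7 scaffold libraries among the 15 shown.

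Of 11 tested receptor and co-receptor genes, 0 rose and 2 fell at day 3 (10% of all genes called), where FGFR2 went from 38.2 ± 1.35 normalized reads to 3.77 ± 0.866 (log2 change −3.05, limma, adjusted p = 2.88e-07). On plastic at day 21, 3 rose and 3 fell against day 0 (45.2% of all genes). Against that group 5 rose and 1 fell on the media scaffold (35.4% of all genes), and 6 rose and 2 fell on the smart scaffold (37.5%). Both counts of risen genes include KLB, which was tested only because of its scaffold reads. List medians were 1.21 and 1.05, against 0.02 and 0.01 over all genes. KLB, the co-receptor for endocrine FGFs, had 0 reads in all plastic libraries, 198 on the media scaffold and 65 on the smart scaffold. It was at least 14.99-fold and 8.37-fold higher there than on plastic at day 21, against a floor of 3 reads over that group. The heparan sulfate proteoglycan gene SDC2 had 227 ± 9.42 normalized reads on plastic at day 21 and rose on both scaffolds, reaching 1432 ± 312 on the media scaffold (2.63, adjusted p = 5.64e-10) and 1816 ± 168 on the smart scaffold (2.99, adjusted p = 2.11e-10).

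FGFR1, named here after its values had been seen, had 316 and 471 normalized reads on plastic at day 21, 51.3 to 109 on the media scaffold and 54.7 to 117 on the smart scaffold. It rose on plastic against day 0 (log2 change 1.66, limma, adjusted p = 0.000455) and fell on the media and smart scaffold against plastic at day 21 (−2.48 and −2.13, adjusted p = 5.85e-06 and 5.17e-05). FGFR2 rose on both scaffolds (1.74 and 2.34, adjusted p = 6.69e-05 and 4.98e-06), with 6.20 ± 0.956 on plastic at day 21, 23.7 ± 7.56 on the media scaffold and 35.6 ± 6.38 on the smart scaffold. The FGFR2 level on plastic at day 21 rests on 6 reads over the group, and that at day 3 on 12.

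Of 25 adaptor and kinase genes of the cascade, 0 rose and 1 fell at day 3 (10% of all genes called), with a list median of 0.05 against −0.02 over all genes. That gene was the adaptor GAB1 (log2 change −1.06, adjusted p = 0.00202), which fell below the fold threshold under several settings, among them edgeR (−0.93) and array weights (−0.67). At day 21 on plastic 7 rose and 4 fell against day 0, a share near the 45.2% of all genes, led by the scaffold protein gene KSR1 (log2 change 2.92, limma, adjusted p = 2.03e-09). On the media scaffold 3 rose and 3 fell against plastic (35.4% of all genes), and on the smart scaffold 6 rose and 4 fell (37.5%), with medians of −0.21 and −0.01. LAMTOR3, which anchors MEK and ERK on late endosomes, had 26.5 ± 13.2 normalized reads on plastic at day 21, 184 ± 24.0 on the media scaffold and 184 ± 9.39 on the smart scaffold. BRAF, at 12.7 ± 6.29 on plastic at day 21, had 2.46 ± 0.786 and 1.61 ± 0.717 on the scaffolds. These levels rest on 11 reads over plastic at day 21, 11 over the media scaffold and 4 over the smart scaffold. The mean of BRAF over all libraries lay barely above the minimum for testing.

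Among 13 other feedback inhibitors, 1 rose and 3 fell at day 3 (10% of all genes called), and 2 rose and 4 fell on plastic at day 21 against day 0, a share near the 45.2% of all genes. SPRY1, another Sprouty gene, had 36.6, 31.5 and 29.6 normalized reads at day 0, 76.1, 47.3 and 83.9 at day 3, and 910 and 505 on plastic at day 21. The media scaffold libraries held 149, 137, 160 and 146 and the smart scaffold libraries 77.6, 65.1 and 65.5. It rose on plastic by 4.34 (limma, adjusted p = 6.48e-11) and fell against plastic of day 21 on both scaffolds (−2.19 and −3.27, adjusted p = 3.45e-07 and 6.05e-09), the direction also seen for SPRY2. Other inhibitors fell on plastic. At day 3 these were LRIG3 (log2 change −2.12), DUSP8 (−2.04) and DUSP14 (−1.36). From day 0 to day 21 DUSP14 fell from 984 ± 86.6 normalized reads to 149 ± 13.2 (−2.72), and ERRFI1 from 1603 ± 83.4 to 287 ± 31.5 (−2.48).

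SPRY1 was also the 1 gene of all 5 lists that was called between the scaffold types. It was lower on the smart than on the media scaffold (−1.09, adjusted p = 0.00754), with no overlap of libraries, and without the second smart scaffold library the adjusted p was 0.0524 (−1.04). Of the 13 inhibitors, 3 rose on the media scaffold against plastic at day 21 and 4 on the smart scaffold, while SPRY1 was the 1 gene that fell in each (35.4% and 37.5% of all genes called). DUSP10, a phosphatase of the stress kinases p38 and JNK, rose on both, from 58.9 ± 20.1 on plastic to 157 ± 26.4 on the media scaffold (1.43, adjusted p = 4.84e-05) and 188 ± 27.5 on the smart scaffold (1.69, adjusted p = 1.42e-05). LRIG3 likewise went from 43.1 ± 7.43 to 125 ± 12.8 (1.52, adjusted p = 2.13e-06) and 96.6 ± 17.3 (1.14, adjusted p = 7.66e-05).

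Of 22 other ERK-responsive transcription genes, 2 rose and 3 fell at day 3 (10% of all genes called), and 3 rose and 7 fell on plastic at day 21 against day 0, a share near the 45.2% of all genes. Against plastic at day 21, 3 rose and 7 fell on the media scaffold (35.4% of all genes) and 4 rose and 6 fell on the smart scaffold (37.5%), with medians of −0.45 and −0.36 against 0.02 and 0.01 over all genes. ETV1, the remaining gene of the PEA3 group, had 605 ± 103 normalized reads on plastic at day 21, 87.5 ± 11.9 on the media scaffold and 82.6 ± 4.26 on the smart scaffold (log2 changes −2.78 and −2.85, limma, adjusted p = 7.64e-11 and 7.38e-11). Unlike ETV5, ETV1 was not called on plastic between day 0 (495 ± 32.7) and day 21. The cyclin gene CCND1 rose at day 3 (1.29, adjusted p = 9.75e-05), a value of 0.97 with array weights, and had 2672 ± 732 on plastic at day 21, 720 ± 38.2 on the media scaffold and 492 ± 127 on the smart scaffold. ETS2 rose on both scaffolds, from 99.6 ± 38.8 on plastic at day 21 to 409 ± 34.8 on the media scaffold (2.08, adjusted p = 2.33e-08) and 541 ± 40.0 on the smart scaffold (2.48, adjusted p = 5.33e-09). PLAUR, the urokinase receptor gene, fell on plastic from 2048 ± 63.4 at day 0 to 195 ± 45.2 at day 21. It had 846 ± 130 on the media scaffold and 1049 ± 124 on the smart scaffold, above plastic at day 21, whereas ETV1 and CCND1 lay below it.

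**Figure D4:**
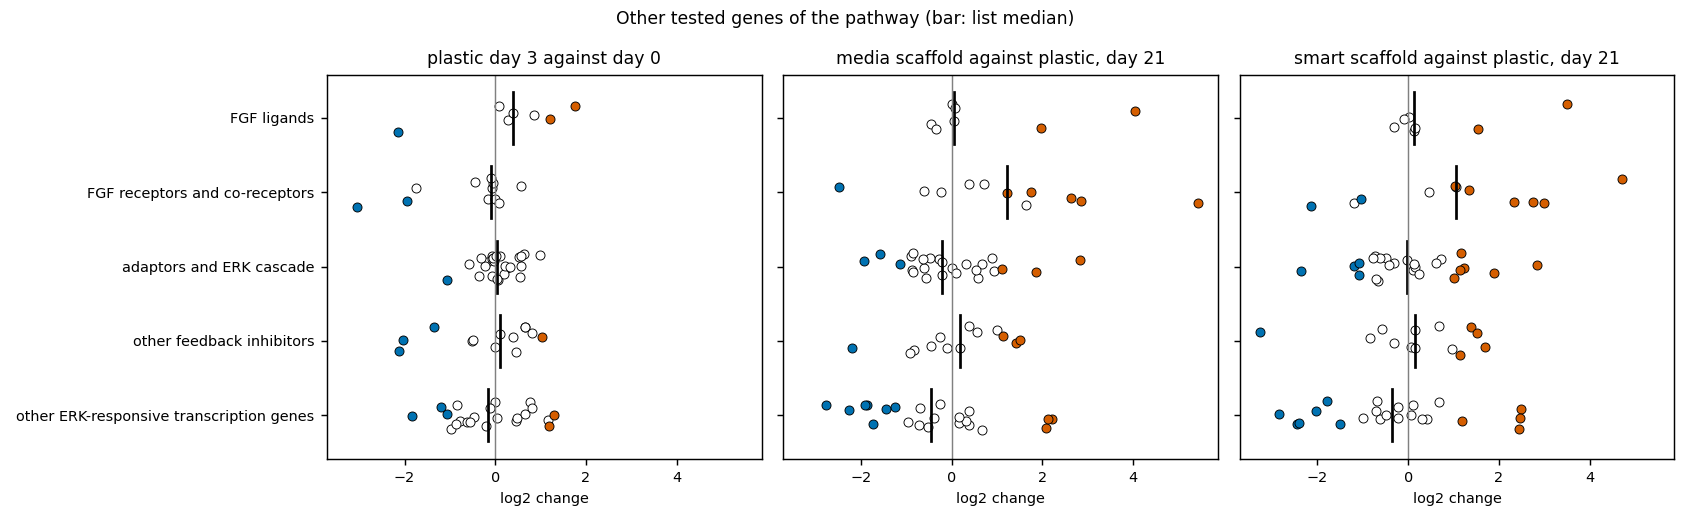
Log2 change of each tested gene of the 5 further lists in 3 comparisons, where orange points rose, blue points fell, white points were not called and bars are list medians. Each list holds genes on both sides of 0 in the comparisons of scaffold with plastic, and the median of the receptors is 1.21 on the media scaffold.

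Genes with the most similar profile over the 15 libraries were found by Pearson correlation of log2 values, as a description of libraries that fall into groups and share those groups' conditions. For DUSP6 they were FRMD4A (r = 0.983), SP110 (0.982), MSX1 (0.979), ADORA2B (0.978) and RTKN (0.978). MSX1, a homeobox factor gene, had mean levels of 137 at day 0, 312 at day 3, 474 on plastic at day 21, 93.0 on the media scaffold and 61.2 on the smart scaffold, the same order as DUSP6. For SPRY4 the closest were STK32C (0.944), HSD11B1L (0.929), POR (0.918), ACRBP (0.913) and SLCO4A1 (0.901). For EGR1 they were PXDC1 (0.968), WTIP (0.948), JUN (0.918), FGFR2 (0.898) and ANKRD1 (0.894). JUN and FGFR2 belong to the pathway lists, while the genes named for DUSP6 and SPRY4 lie outside them.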

How the data were processed

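The authors deposited a normalized read signal for 12894 genes, made from MARS-seq read counts of polyadenylated RNA. Cutadapt, STAR, HTSeq and DESeq with the bovine build ARS-UCD1.2 are named, without versions, per the submitters' processing notes. How strand and molecular identifiers were handled, and which animals gave the cells, the sources used here do not state. The labels describe 17 samples in 6 groups, while 2 columns of values carried names that no labelled sample has and were not used, so 15 libraries in 5 groups were used. Dividing by the value of 1 read gave whole reads in every library (100% of values within 0.1). For 2 libraries that value lies within 1% of 1, so edgeR 4.0.16 and DESeq2 1.42.0 ran on the other 13, a restriction chosen after seeing the data.

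Values were analysed as log2(value + 1) with limma 3.58.1 (R 4.3.3; trend and robust options) in 1 fit with a mean per group. A mean of 5 or more across all 15 libraries was required for testing (10960 genes, leaving out 1934), with two-sided tests and Benjamini-Hochberg adjustment over all of them in each of 8 comparisons. The script was tested on simulated data. The design text calls libraries of a group biological replicates. Chi-square tests of the reads of replicate pairs gave 2.39 to 17.3 for each degree of freedom, above what counting alone gives. Such an excess does not show that libraries came from separate cultures. No library was counted as a repeat, and for this the design text was relied on.

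The members and the lists were chosen with earlier results of these data known. Named were the members, the 5 genes most correlated with DUSP6, SPRY4 or EGR1, and FGFR1. The other pathway genes named were taken from the up to 2 called genes of each list with the largest change per comparison. Not all genes picked by that rule are given above. Those left out include GPC4, NCAM1, GPC1, IER3, HMGA2, ELK3, EPHA4 and FOSB. The 5 pathway lists held 7 of 17, 12 of 18, 27 of 28, 16 of 23 and 24 of 28 genes in the table (ligands, receptors, cascade, inhibitors, transcription). The planned comparisons with scaffold cells of day 0 were not run. Alternatives comprised other pseudocounts, filters, scalings and tests, a replicate block and leaving out each library.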

Additional observations from a re-analysis of the deposited data

Results flagged for a closer look

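In the media scaffold group (4 libraries), 1 library stood apart from the other 3 for 4 of the 44 genes and groups checked, by a gap that chance gives in about 1 in 20 groups. KLB had 25.7 normalized reads in 1 library against a highest value of 51.7. SDC2 had 1898 in 1 library, where the lowest had 1251. FGF5 had 23.8 in 1 library, where the lowest had 10.9, and FGF18 had 15.8 in 1 library against a highest value of 18.9. None of the 10 feedback genes was among them.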

How the results depend on the processing

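Counts of called members stayed within 1.5 times the reported ones in 142 of 143 recomputations, the exception being the media scaffold against day 0 with a minimum mean of 20 (2 members, since genes with few reads then left the test). Counts over all genes did so in 138 of 143. The exceptions concerned smart against media scaffold, with 192 genes under array weights, against 99. The others were 53 to 62 genes without media scaffold library 1, 2 or 3 or smart scaffold library 2. Leaving out each library of these groups in turn gave 53 to 87. The cause was not tested. With libraries rescaled to an equal total, the all-gene median shifted by −0.26 on plastic at day 21 against day 0, by −0.32 against day 3, and by −0.25 and −0.22 on the scaffolds against day 0, and no tested member changed direction.

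Of 1252 values of single members, 30 lost and 6 gained a call and 18 changed sign, all of the latter with no call. Between smart and media scaffold, DUSP5 changed sign with quantile normalization (0.0732). Leaving out single libraries gave ranges across 0 there for DUSP5 (−0.585 to 0.55), SPRY4 (−0.0604 to 0.618), DUSP4 (−0.269 to 0.405), SPRED1 (−0.106 to 0.0308) and ETV5 (−0.217 to 0.168). It did so for SPRY2 between day 3 and day 21 on plastic (−0.398 to 0.278) and on the smart scaffold against day 0 (−0.397 to 0.0961). No pairing of libraries by the replicate numbers of the labels was seen: deviations of same-numbered libraries correlated at −0.07 to 0.16. Such low values cannot show that libraries were unpaired. In the group of 2 libraries, plastic at day 21, the deviations mirror each other by construction. With the replicate block, DUSP5 on plastic at day 21 against day 0 was called (−1.34, adjusted p = 0.0436), SPRY4 on the media scaffold against day 0 was not (−0.91, adjusted p = 0.115), and DUSP4 (−0.00191), SPRY4 (−0.0473) and SPRED1 (0.0308) changed sign between the scaffolds. Of 1287 values of FGFR1 and of all pathway genes picked by the rule for naming, 21 lost their call and 0 changed sign. The depth of the second plastic library of day 21 limits genes with few reads.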
